A study of Mus musculus with 24 samples.

Results

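The genes described here are 10 members of the Notch pathway in the mouse mammary gland: the receptors Notch1, Notch2, Notch3 and Notch4, the ligands Jag1, Jag2, Dll1 and Dll4, and the target genes Hes1 and Hey1. They were chosen by name, and every probe of the array that carries 1 of these names was taken, which gave 15 of the 56605 probes. Of these 15 probes, 12 were bright enough to be tested, among the 35117 tested on the whole array. Each of the 10 genes had at least 1 tested probe, among 22382 genes tested.

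Whole inguinal (#4) mammary glands of 24 female C57BL/6 mice, freed of the lymph node, were profiled on 1-colour 60-mer arrays, with 1 array for each animal. The groups were SOCS2 R96C knock-in mice on day 18 of pregnancy (n = 5), wild-type mice on day 18 of pregnancy (n = 5), virgin knock-in mice of 8 weeks (n = 7) and virgin wild-type mice of 8 weeks (n = 7). SOCS2 is a suppressor of cytokine signalling, and the knock-in mice carried the changed allele on both chromosomes, in every cell. The probes do not read the base change, so the genotype rests on the labels. The labels give no age for the pregnant mice, so pregnancy and age cannot be told apart. The study compared the genotypes at each stage, and the same arrays compare pregnancy with the virgin gland.

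Notch receptors sit on the cell surface and are bound by Jagged and Delta-like ligands on a neighbouring cell. Binding leads to cleavage of the receptor, and its freed intracellular part enters the nucleus, joins the DNA-binding protein RBPJ and switches on targets such as the repressors of the HES and HEY families. In the mammary gland the pathway is known for its part in the luminal fate of epithelial progenitors, and Notch4 and Dll4 are also known from blood vessels and Notch3 from the mural cells around them.

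For Notch1 the array holds a pair of tested probes that behaved differently, so their sequences are shown first, as given in the scanner files. The first lies at chr2:26319440-26319499 on the minus strand (mm9) and is annotated to the reference transcript. The second lies 34609 bp away at chr2:26354049-26354108, on the same strand, and is annotated to another transcript of the gene. Capitals mark the longest run of bases that the pair shares, which is 5 bases.
Notch1 main probe: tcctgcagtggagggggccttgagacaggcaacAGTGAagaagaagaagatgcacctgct
Notch1 second probe: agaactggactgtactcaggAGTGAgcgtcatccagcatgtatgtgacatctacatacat
The main probe has a GC content of 55% and the second of 45%. They share no longer stretch.

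Values are log2 of the processed signal minus the array's 75th percentile, so 0 is the brightness of the 75th percentile spot and 1 unit is a doubling. Levels of different probes are not compared, since brightness depends on the probe. A gene was called changed at a Benjamini-Hochberg adjusted p under 0.05 in limma over all 22382 genes, and exact p-values are two-sided permutation tests over the animals.

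On 22 arrays between 33374 and 39174 spots were well above background. The array of virgin knock-in mouse 376 had 57003 such spots, and its negative-control spots read 332, where those of the 23 remaining arrays read 19.4 to 41.4. The array of knock-in day 18 mouse 184 had 43055. Virgin knock-in mouse 198 had a luminal score, the mean log2 level of a list of markers, of −3.74, against a median of 1.40 in its group, and a skeletal muscle score of 8.12 against −0.59. High muscle scores were not confined to mouse 198. The score of mouse 184 was 5.18. Among arrays other than those of mice 376, 184 and 198, the highest score was 7.12 for virgin wild-type mice and 6.46 for pregnant knock-in mice. Values without mice 376, 184 and 198 are given beside the results they moved.

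At day 18 of pregnancy, 5 of the 10 genes differed from the virgin gland in each genotype. Hey1, Jag1 and Notch2 were lower and Dll1 was higher in knock-in and in wild-type mice, whereas Notch1 passed the test in knock-in mice and Hes1 in wild-type mice. The background was high: 43.2% of all genes were called between stages in knock-in mice and 41.8% in wild-type mice, so 5 of 10 members is close to the share of genes in general. In each genotype 2 members were higher and 3 lower, beside 22.9% of all genes higher and 20.3% lower in knock-in mice and 20.9% each in wild-type mice. With arrays scaled on the spiked-in control RNAs, 0 members were higher and 6 lower in knock-in mice, and 0 higher and 7 lower in wild-type mice. On that scale 13016 of the 22382 genes were called in knock-in and 14807 in wild-type mice. Of these called genes, 10.5% in knock-in and 7.71% in wild-type mice were higher. Genes in general were thus mostly called as lower there too. Of the 12 tested probes of the members, 6 were called in each genotype, beside 39.5% of all probes in knock-in and 38.9% in wild-type mice; 1 of the 6 is the Notch4 clone probe described below, which passed the brightness filter through the day 18 groups alone, so nothing is read from that count. The members' median stage difference was 0.18 in knock-in mice and 0.19 in wild-type mice, beside 0.05 in knock-in and 0.01 in wild-type mice over all genes. Between genotypes, 0 of the 10 genes passed the test at either stage.

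**Figure D1:**
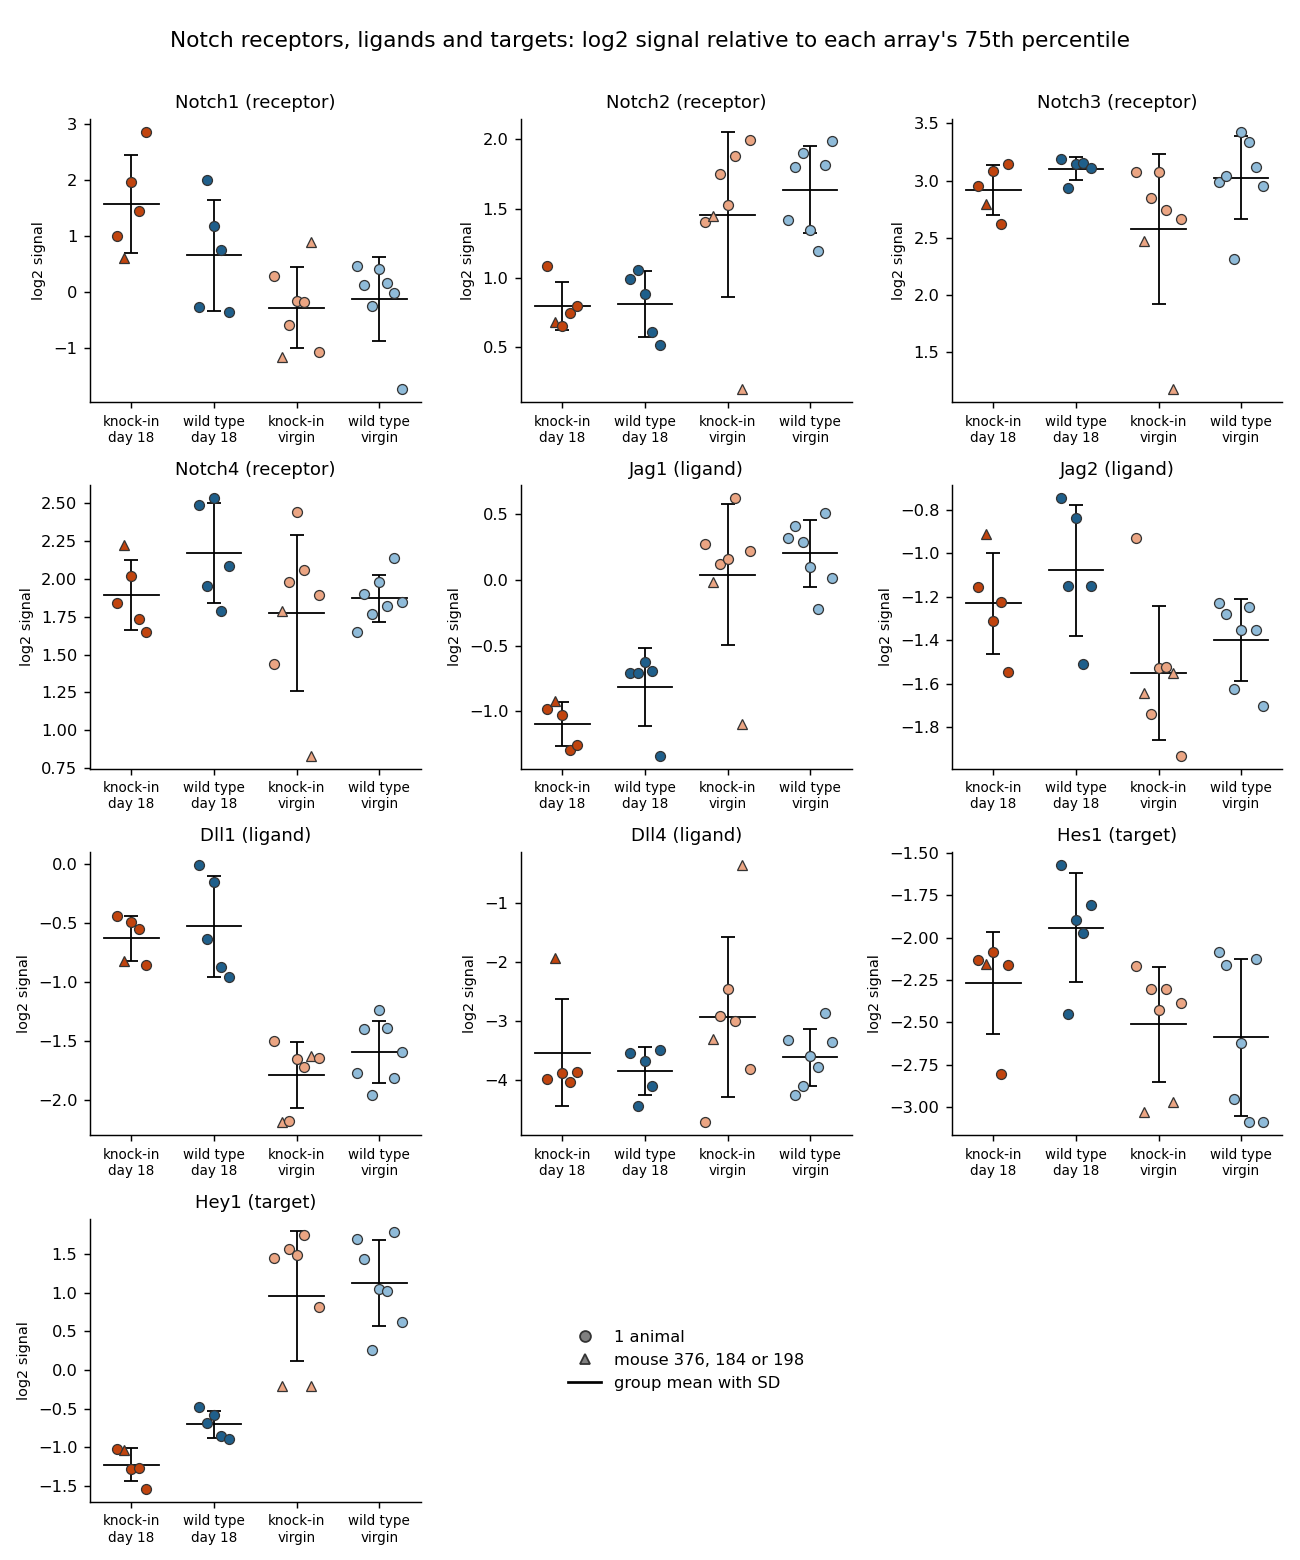
Level of each of the 10 genes in each animal, as log2 of the processed signal relative to the array's 75th percentile; points are animals (triangles are mice 376, 184 and 198), and lines with bars are group means with their SD, and the groups from left to right are knock-in day 18, wild-type day 18, knock-in virgin and wild-type virgin. Hey1 and Jag1 were lower and Dll1 was higher on day 18 in both genotypes, and Notch1 spread over more than 2 log2 units in every group.

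Notch1 is a receptor known to promote the luminal fate in mouse mammary epithelium. Its main probe read 0.99, 0.60, 1.95, 1.44 and 2.86 in the 5 knock-in day 18 glands, against a lowest value of −1.15, a median of −0.17 and a highest of 0.89 in the 7 virgin knock-in glands. Of the knock-in day 18 glands, 4 lay above all virgin knock-in glands, and the gland of mouse 184 lay within their range. The stage difference in knock-in mice was 1.85 ± 0.46 (SE), a 3.60-fold higher level (adjusted p = 0.0022, exact p = 0.0038), and it was 1.59, 2.14 and 2.05 within the 3 slides. In wild-type mice Notch1 read −0.27, 1.99, 1.17, 0.74 and −0.36 at day 18, against −1.73, 0.12 and 0.47 as lowest, median and highest in virgins. These groups overlapped, and the difference of 0.78 ± 0.46 did not pass the test (adjusted p = 0.186). It was −0.49, 1.02 and 1.20 within the slides. That the stage difference passed in knock-in mice only does not show that the genotypes differed in it: the interaction was 1.07 ± 0.65 (95% interval −0.27 to 2.42, adjusted p = 1.00).

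The second Notch1 probe gave no such rise. It read between −4.87 and −2.45 in knock-in day 18 glands, against −4.16 to −0.54 in virgin knock-in glands, with a stage difference of −0.71 ± 0.45 (adjusted p = 0.221). That difference was −1.99 within slide 1, 0.18 within slide 2 and 0.15 within slide 3, so the lower mean rested on slide 1. The array of mouse 376 was on slide 1. In wild-type mice the second probe read between −4.61 and −3.41 at day 18, against −3.83 to −3.16 in virgins, with a difference of −0.34 ± 0.45 (adjusted p = 0.594). It was above background on 23 of 24 arrays, so it was measured almost throughout. With the pair averaged, the Notch1 stage difference in knock-in mice was 0.57 and no longer passed the test (adjusted p = 0.194), so the call for Notch1 rests on the main probe.

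Notch2, a receptor for Jagged and Delta-like ligands, was lower at day 18 in both genotypes (chr3:97953914-97953973, plus strand). It read 1.09, 0.69, 0.66, 0.75 and 0.80 in knock-in day 18 glands, against 0.20, 1.52 and 2.0 as lowest, median and highest in virgin knock-in glands. The single virgin gland below them was that of mouse 376. The difference was −0.66 ± 0.23, a 1.58-fold lower level (adjusted p = 0.0242, exact p = 0.0404), and it was −0.22 within slide 1, −0.93 within slide 2 and −1.01 within slide 3. It missed the threshold when virgin mouse 314 (adjusted p = 0.0518), virgin mouse 384 (0.0519) or day 18 mouse 210 (0.0562) was left out, with no brightness filter (0.0510) and with only the 2 groups in the fit (0.0979). Without mice 376, 184 and 198 it was −0.89 (adjusted p = 2.63e-04). In wild-type mice Notch2 read 0.99, 1.06, 0.89, 0.61 and 0.52 at day 18, against 1.19, 1.80 and 1.99 in virgins. These groups did not overlap, and the difference was −0.82 ± 0.23, a 1.77-fold lower level (adjusted p = 0.0062, exact p = 0.0025).

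Notch3, known from vascular mural cells and from part of the luminal epithelium, did not pass the test (chr17:32257888-32257947, minus strand). It read 2.62 to 3.14 in knock-in day 18 glands, against 1.18 to 3.07 in virgin knock-in glands, and 2.93 to 3.19 in wild-type day 18 glands, against 2.32 to 3.43 in wild-type virgins. The stage differences were 0.34 ± 0.25 in knock-in mice (adjusted p = 0.289; 0.07 without the 3 mice named above) and 0.08 ± 0.25 in wild-type mice (adjusted p = 0.835). Notch4, the receptor first known from mouse mammary tumours with a viral insertion and from endothelium, did not pass it either at the probe of its reference transcript (chr17:34725384-34725442, plus strand). That probe read 1.65 to 2.22 in knock-in day 18 glands, against 0.83 to 2.44 in virgin knock-in glands, with a difference of 0.12 ± 0.21 (adjusted p = 0.690), which was −0.15 without those mice. In wild-type mice it read 1.79 to 2.53 at day 18, against 1.65 to 2.14 in virgins, with a difference of 0.30 ± 0.21 (adjusted p = 0.272).

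A further probe that carries the name Notch4 behaved in another way. It is annotated to a cDNA clone and lies at chr17:35104770-35104829 on the plus strand (mm9), 379386 bp from the main Notch4 probe, and the nearest probe to it belongs to the heat shock gene Hspa1a, 1996 bp away. It read 0.44, 1.52, 1.31, 0.21 and 1.20 in knock-in day 18 glands, against −7.88, −6.43 and −4.39 as lowest, median and highest in the 6 virgin knock-in glands with a value. In wild-type mice it read 1.42, 0.52, 1.69, 0.96 and 0.11 at day 18, against −7.98, −5.41 and −4.63 in virgins. Every day 18 gland of either genotype lay more than 4 log2 units above every virgin gland with a value. The probe passed the brightness filter through the day 18 groups alone, since in virgins it was well above background on 3 of 7 knock-in and 4 of 7 wild-type arrays. Its differences of 7.24 ± 0.66 in knock-in mice and 7.07 ± 0.64 in wild-type mice are therefore given as a description, and their size is imprecise because the virgin values lie at or near background. At the neighbouring Hspa1a probe, on the minus strand, the stage difference was 0.17 in knock-in and −0.36 in wild-type mice, and neither passed the test. Probes further away moved in both directions. That of 1110038B12Rik, 17526 bp away, was at 2.02 in knock-in and 1.75 in wild-type mice, and both passed. That of Slc44a4, 39517 bp away, was at −1.83 in knock-in mice (adjusted p = 0.0521) and −2.30 in wild-type mice (adjusted p = 0.0152). Any link of these to the clone probe was not tested. Averaging all tested probes named Notch4 gave stage differences of 3.17 in knock-in mice and 3.69 in wild-type mice, far from those of the main probe.

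**Figure D2:**
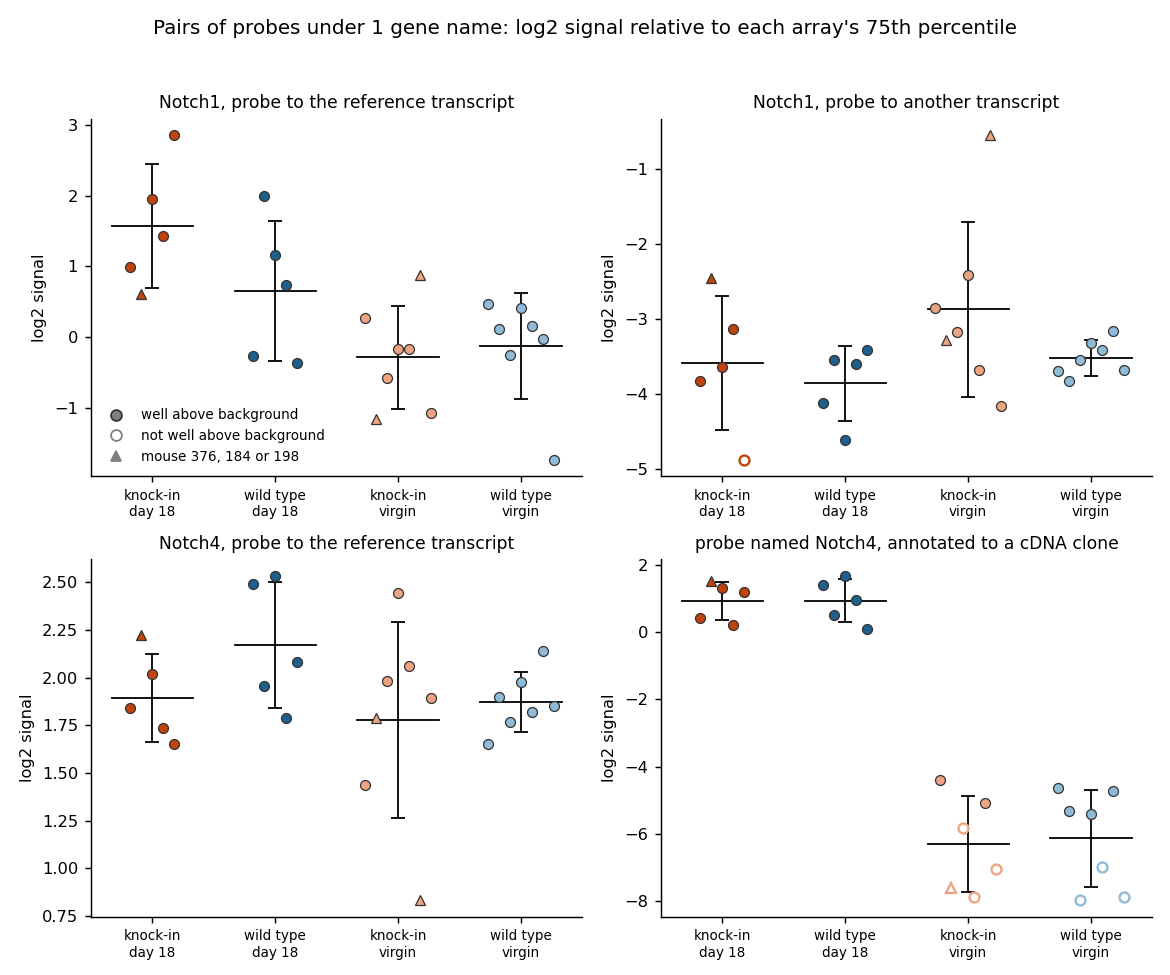
Level in each animal at the pairs of tested probes named Notch1 and Notch4, on the log2 scale relative to the array's 75th percentile, with the groups from left to right as knock-in day 18, wild-type day 18, knock-in virgin and wild-type virgin. The Notch4 clone probe lay above 0 in all 10 day 18 glands and below −4 in every virgin gland with a value, whereas the main Notch4 probe overlapped between stages.

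The other 3 probes, 1 each named Notch2, Notch4 and Dll1, failed the brightness filter. They were above background on 3, 3 and 2 of 24 arrays and give no measure of the genes.

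Among the ligands, Jag1 and Dll1 moved in opposite directions. Jag1, the Jagged ligand that is also found on stromal and vascular cells, was lower at day 18 (chr2:136907433-136907492, minus strand). It read −0.98, −0.92, −1.03, −1.29 and −1.26 in knock-in day 18 glands, against −1.09, 0.15 and 0.62 as lowest, median and highest in virgin knock-in glands. Again the array of mouse 376 gave the single virgin value within the day 18 range. The difference was −1.13 ± 0.22, a 2.19-fold lower level (adjusted p = 1.80e-04, exact p = 0.0101), and −1.41 without the 3 mice named above (adjusted p = 5.46e-07). In wild-type mice Jag1 read −0.71, −0.71, −0.63, −0.70 and −1.34 at day 18, against −0.23, 0.29 and 0.50 in virgins. The groups did not overlap, and the difference was −1.01 ± 0.22, a 2.02-fold lower level (adjusted p = 5.74e-04, exact p = 0.0013, the smallest that 792 splits allow).

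Dll1, the Delta-like ligand known in the mammary gland from basal cells that signal to macrophages, was higher at day 18 (chr17:15504623-15504682, minus strand). It read −0.44, −0.82, −0.49, −0.55 and −0.85 in knock-in day 18 glands, against −2.18, −1.65 and −1.50 as lowest, median and highest in virgin knock-in glands. All 5 day 18 values lay above all 7 virgin values, and the difference was 1.15 ± 0.19, a 2.22-fold higher level (adjusted p = 2.73e-05, exact p = 0.0013). In wild-type mice it read −0.0085, −0.64, −0.15, −0.88 and −0.96 at day 18, against −1.95, −1.59 and −1.24 in virgins. These groups did not overlap either, and the difference was 1.06 ± 0.19, a 2.09-fold higher level (adjusted p = 7.33e-05, exact p = 0.0013). It varied in size between slides, at 1.78, 1.16 and 0.60 within slides 1, 2 and 3.

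Jag2 and Dll4 did not pass the test in either genotype. Jag2, a second Jagged ligand, read −1.55 to −0.91 in knock-in day 18 glands, against −1.93 to −0.93 in virgin knock-in glands, and −1.51 to −0.75 in wild-type day 18 glands, against −1.70 to −1.23 in wild-type virgins (chr12:114146887-114146946, minus strand). Its difference was 0.32 ± 0.17 in both genotypes (adjusted p = 0.136 in each). Dll4, the Delta-like ligand of sprouting blood vessels, read −4.04 to −1.93 in knock-in day 18 glands, against −4.72 to −0.36 in virgin knock-in glands, and −4.44 to −3.50 in wild-type day 18 glands, against −4.27 to −2.88 in wild-type virgins (chr2:119160779-119160838, plus strand). The differences of −0.61 ± 0.50 in knock-in mice and −0.24 ± 0.50 in wild-type mice were smaller than the spread between animals (adjusted p = 0.354 in knock-in and 0.745 in wild-type mice). Its highest value in knock-in day 18 glands came from the array of mouse 184. The highest value in virgin knock-in glands, −0.36, also stood far from the median of that group, −3.01. Leaving out 1 mouse at a time moved the knock-in difference between −1.01 and −0.18, without a call (lowest adjusted p = 0.104).

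Of the targets, Hey1 changed the most. Hey1 encodes a transcriptional repressor that Notch signalling induces, known above all from blood vessels (chr3:8663432-8663491, minus strand). It read −1.02, −1.03, −1.28, −1.27 and −1.54 in knock-in day 18 glands, against −0.20, 1.45 and 1.75 as lowest, median and highest in virgin knock-in glands. In wild-type mice it read −0.48, −0.68, −0.59, −0.85 and −0.90 at day 18, against 0.26, 1.04 and 1.78 in virgins. The stages did not overlap in either genotype. The difference was −2.18 ± 0.32 in knock-in mice, a 4.53-fold lower level (adjusted p = 9.68e-06, exact p = 0.0025), and −1.82 ± 0.32 in wild-type mice, a 3.54-fold lower level (adjusted p = 8.50e-05, exact p = 0.0013). Hey1 passed the test in both genotypes under all 17 alternative ways of processing, 1 of which fitted only the 2 groups compared, with differences between −3.01 and −1.83 in knock-in mice and between −2.74 and −1.60 in wild-type mice.

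Hes1, the HES repressor that responds to Notch in many tissues, was 1.57-fold higher at day 18 in wild-type mice (chr16:30067820-30067879, plus strand). It read −1.57, −2.45, −1.90, −1.98 and −1.81 at day 18, against −3.09, −2.62 and −2.09 as lowest, median and highest in virgins, so the groups overlapped. The difference was 0.65 ± 0.22 (adjusted p = 0.0220, exact p = 0.0290). It missed the threshold when virgin mouse 320 (adjusted p = 0.0508), day 18 mouse 206 (0.0715) or day 18 mouse 235 (0.0506) was left out. In knock-in mice Hes1 read −2.14, −2.15, −2.08, −2.80 and −2.16 at day 18, against −3.03, −2.39 and −2.17 in virgins. The difference of 0.25 ± 0.22 did not pass (adjusted p = 0.403), and without mice 376, 184 and 198 it was 0.02. The interaction of −0.40 ± 0.31 did not pass either (adjusted p = 1.00).

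**Figure D3:**
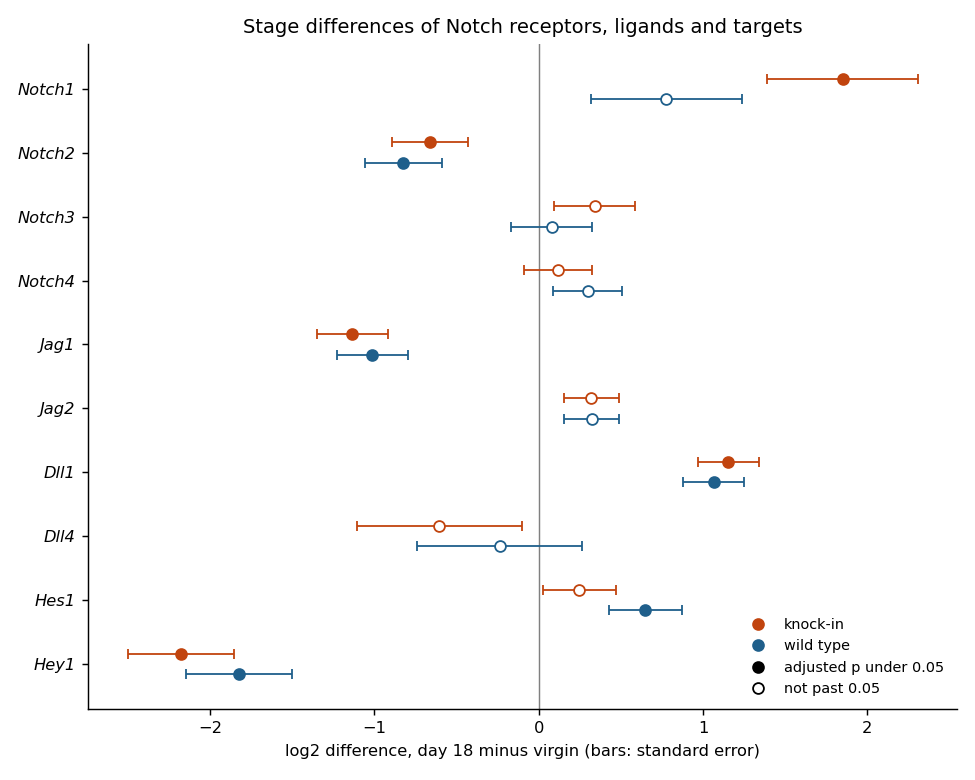
Stage difference of each of the 10 genes, day 18 minus virgin, in log2 units with its standard error, for knock-in and wild-type mice; filled points passed an adjusted p of 0.05. Hey1, Jag1 and Notch2 lay below 0 and Dll1 above 0 in both genotypes.

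By separation of the animals, 2 of the 10 genes (Dll1 and Hey1) had no overlap between stages in knock-in mice and 4 (Dll1, Hey1, Jag1 and Notch2) in wild-type mice, beside 20.2% of all genes in knock-in and 39.2% in wild-type mice. Without mice 376, 184 and 198 the count was 5 of 10 in knock-in mice, where 42.2% of all genes then had no overlap. Without these mice the limma test called 5 of 10 members in knock-in mice, beside 54.5% of all genes, at differences of 2.15 for Notch1, −0.89 for Notch2, −1.41 for Jag1, 1.15 for Dll1 and −2.69 for Hey1.

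These directions are relative to the array's own brightness. When arrays were scaled on the spiked-in control RNAs, the median stage difference of all genes was −0.78 in knock-in mice and −0.91 in wild-type mice, and 10.5% of the called genes in knock-in and 7.71% in wild-type mice were higher, against 53.0% in knock-in and 50.1% in wild-type mice with the 75th percentile. On that scale Dll1 was 0.32 in knock-in mice and 0.15 in wild-type mice and no longer passed, Notch1 in knock-in mice was 1.02 (adjusted p = 0.0815), and Hes1 was −0.59 in knock-in mice and −0.27 in wild-type mice, so the direction of Hes1 turned. Notch4 turned as well and passed the test there, at −0.72 in knock-in mice and −0.62 in wild-type mice. Dll4 passed as lower at −1.44 in knock-in mice (adjusted p = 0.0183) and −1.16 in wild-type mice (adjusted p = 0.0472), as did Notch3 (−0.84, adjusted p = 0.0060) and Jag2 (−0.60, adjusted p = 0.0472) in wild-type mice. Relative to the median of all genes, Dll1 with the 75th percentile was at 1.10 in knock-in and 1.05 in wild-type mice. Under quantile normalization it was at 1.73 in knock-in and 1.08 in wild-type mice. Hey1 was at −2.23 in knock-in and −1.84 in wild-type mice, and under quantile normalization at −2.19 in knock-in and −1.76 in wild-type mice. Median and spike-in scaling shift all genes of an array alike, as the 75th percentile does. Their relative values are therefore nearly the same by construction and are no further check. Jag1 missed the threshold under quantile normalization and median scaling, where its difference was −0.66 and −0.93 in knock-in mice and −0.94 and −0.84 in wild-type mice, and under normexp with quantile normalization (−0.71 in knock-in and −0.79 in wild-type mice). Under quantile normalization Dll1 missed it in wild-type mice (adjusted p = 0.146), and under median scaling Notch2 missed it in both genotypes. Hes1 missed it in wild-type mice under these 3 settings.

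In whole glands, fewer cells of a type and less RNA per cell cannot be told apart, and markers of several cell types moved with the stage as well. All 6 secretory alveolar markers were higher at day 18 in both genotypes, with a score of 8.26 to 8.75 in knock-in and 7.94 to 8.67 in wild-type day 18 glands, against −3.88 to 0.01 in knock-in and −4.12 to 3.98 in wild-type virgins. Of 10 basal and myoepithelial markers, 9 were higher in knock-in mice and 6 in wild-type mice. Among 4 luminal progenitor markers, 3 were higher in both genotypes. Among 9 luminal epithelial markers, 5 were higher in knock-in and 3 in wild-type mice, and 0 were lower. T cell markers, 6 in number, had 1 higher and 1 lower in knock-in mice, and 5 higher and 1 lower in wild-type mice. All 8 fibroblast markers and 6 of 8 adipocyte markers were lower in both genotypes.

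Of 8 macrophage markers, 7 were lower and 1 higher in both genotypes, 5 of 7 markers of hormone-sensing luminal cells were lower in both, and 3 of 4 Schwann cell markers were lower in both. Part of the vessel markers was lower as well. Among 4 lymphatic endothelial markers, 2 were lower and 1 higher in both genotypes. Of 10 blood endothelial markers, 7 were lower at day 18 in knock-in mice and 5 in wild-type mice, and the endothelial adhesion gene Pecam1 had a difference of −0.74 in knock-in mice (adjusted p = 0.0060) and −0.49 in wild-type mice (adjusted p = 0.0659). The endothelial score ranged over −0.13 to 0.51 in knock-in and 0.35 to 0.67 in wild-type day 18 glands, against 0.21 to 1.47 in knock-in and 1.01 to 1.43 in wild-type virgins. Of 7 mural cell markers, 5 were lower in knock-in mice and 3 in wild-type mice, with Pdgfrb, the receptor that recruits pericytes, at −1.23 in knock-in and −1.47 in wild-type mice. The part of these shifts in the Notch results was not tested.

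The rest of the pathway was taken from a list of 70 further genes, of which 65 were tested. At day 18, 17 were higher and 13 lower in knock-in mice (46.2%), and 14 were higher and 17 lower in wild-type mice (47.7%), against 43.2% of all genes in knock-in and 41.8% in wild-type mice. The median stage difference of the 65 was 0.26 in knock-in mice and 0.08 in wild-type mice.

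Among the genes for receptor maturation and glycosylation, 3 of 6 were lower in both genotypes and 0 were higher. These were the fringe glycosyltransferases Mfng and Lfng, which add sugars that bias receptors towards Delta-like ligands, and Pofut1, which adds the fucose that fringes extend. Mfng ranged over 0.71 to 1.92 in knock-in day 18 glands, against 1.68 to 4.42 in virgin knock-in glands, and over 1.29 to 2.33 in wild-type day 18 glands, against 2.81 to 4.07 in wild-type virgins. Its difference was −2.26 ± 0.37 in knock-in mice (adjusted p = 3.51e-05) and −1.80 ± 0.37 in wild-type mice (adjusted p = 4.37e-04). Lfng was at −1.35 in knock-in and −1.30 in wild-type mice, and Pofut1 at −0.63 in knock-in and −0.83 in wild-type mice. Rfng, the other fringe gene, did not pass, at 0.42 in knock-in mice (adjusted p = 0.0762) and 0.31 in wild-type mice (adjusted p = 0.207). Of 9 genes for the proteases that cut the receptor, 3 were higher in each genotype, 3 were lower in knock-in mice and 4 were lower in wild-type mice. The γ-secretase subunits Ncstn and Psenen were among those higher in both genotypes, while Psen2, Aph1b and Aph1c were lower in both and Adam17 in wild-type mice. Aph1b (−1.35 in knock-in, −1.12 in wild-type mice) and Aph1c (−0.88 in knock-in, −1.14 in wild-type mice) are close paralogs, and whether their probes share target RNA was not tested.

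In the nuclear complex, the coactivator genes Maml2, Crebbp and Snw1 were higher in both genotypes, at 0.83, 0.93 and 0.99 in knock-in mice and 1.00, 0.79 and 0.81 in wild-type mice. Maml3 was higher in wild-type mice. Rbpj, the DNA-binding partner itself, was lower in wild-type mice (−0.67, adjusted p = 0.0263) and was at −0.53 in knock-in mice, which did not pass (adjusted p = 0.0748). Of 12 corepressor genes, Ctbp2 was higher in both genotypes (1.37 in knock-in, 1.06 in wild-type mice), Tle1 was higher in knock-in mice, and 10 in knock-in and 11 in wild-type mice did not pass.

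Among inhibitors and turnover factors, Numbl, a relative of the Notch inhibitor Numb, had the lowest stage difference in each genotype. It ranged over 0.53 to 0.89 in knock-in day 18 glands, against 1.67 to 2.51 in virgin knock-in glands, and over 0.18 to 0.58 in wild-type day 18 glands, against 1.75 to 2.43 in wild-type virgins. The stages did not overlap, with a difference of −1.37 ± 0.16 in knock-in mice (adjusted p = 4.07e-07) and −1.75 ± 0.16 in wild-type mice (adjusted p = 1.37e-08). Fbxw7, the ubiquitin ligase subunit that marks the freed intracellular part for destruction, was higher, at 1.57 ± 0.16 in knock-in mice (adjusted p = 1.05e-07) and 1.47 ± 0.16 in wild-type mice (adjusted p = 2.70e-07). Dtx2 and Dtx4 of the Deltex family were lower and Dtx1 was higher in both genotypes. Nrarp, itself a Notch target that feeds back on the complex, was lower, at −0.97 in knock-in mice (adjusted p = 6.84e-04) and −0.69 in wild-type mice (adjusted p = 0.0109).

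Other targets did not move in a single direction. Of 4 further HES and HEY genes, Heyl was lower in both genotypes (−1.03 in knock-in, −1.02 in wild-type mice), Hes6 was higher in both (0.65 in knock-in, 0.54 in wild-type mice), Hes2 was lower in knock-in mice (−1.62, adjusted p = 0.0055) and Hes7 passed in neither. Of 7 other reported targets, 3 were higher and 0 lower in knock-in mice, and 2 were higher and 2 lower in wild-type mice. Sox9, a factor of mammary progenitors, was higher, at 3.69 ± 0.59 in knock-in mice (adjusted p = 2.56e-05) and 2.75 ± 0.59 in wild-type mice (adjusted p = 6.33e-04). Myc was higher too, at 1.69 ± 0.17 in knock-in mice (adjusted p = 4.69e-08) and 1.50 ± 0.17 in wild-type mice (adjusted p = 2.76e-07). Gata3, a luminal factor, was at 1.92 in knock-in mice (adjusted p = 0.0231) and 0.76 in wild-type mice, which did not pass (adjusted p = 0.390). The gland of virgin knock-in mouse 198 read −1.18 for Gata3, against a median of 4.07 in its group, and without that mouse the difference in knock-in mice was 1.21 (adjusted p = 0.0129), while without mice 376, 184 and 198 it was 0.98 (adjusted p = 0.0121) and 0.76 in wild-type mice (adjusted p = 0.0210). Bcl2, which blocks cell death, was lower in wild-type mice (−0.90, adjusted p = 0.0059) and was at −0.62 in knock-in mice, which did not pass (adjusted p = 0.0507). Efnb2, an ephrin ligand of arteries, was lower in wild-type mice (−0.49, adjusted p = 0.0263) and was at −0.36 in knock-in mice, which did not pass (adjusted p = 0.0952). Of the ligand-like proteins, Dlk1, a preadipocyte protein, was lower (−1.99 in knock-in, −1.59 in wild-type mice) and Dlk2 was higher (1.04 in knock-in, 1.14 in wild-type mice). Of the pathway genes named here, leaving out at least 1 single mouse ended the call of Psen2, Dtx1, Tle1 and Gata3 in knock-in mice, and of Adam17, Ncstn, Psenen, Rbpj, Maml3, Crebbp and Efnb2 in wild-type mice. Without virgin mouse 376, Crebbp was at 0.61 and Tle1 at 0.48 in knock-in mice. Leaving out that mouse also added calls. Rbpj (−0.72, adjusted p = 0.0023), Adam17 (−0.54, 5.23e-04) and Bcl2 (−0.87, 2.59e-05) then passed in knock-in mice. So did Efnb2 (−0.43, adjusted p = 0.0250), Maml3 (0.66, 0.0229) and Hes7 (0.48, 0.0072). In wild-type mice Hes7 (0.52, adjusted p = 0.0027), Hes2 (−0.93, 0.0148), Tle1 (0.55, 0.0084) and Rfng (0.31, 0.0239) then passed as well, at unchanged differences. Without mice 376, 184 and 198, Maml3 in knock-in mice was at 0.46 and did not pass (adjusted p = 0.122). Hes2 in knock-in mice was then at −1.07 (adjusted p = 0.0177).

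**Figure D4:**
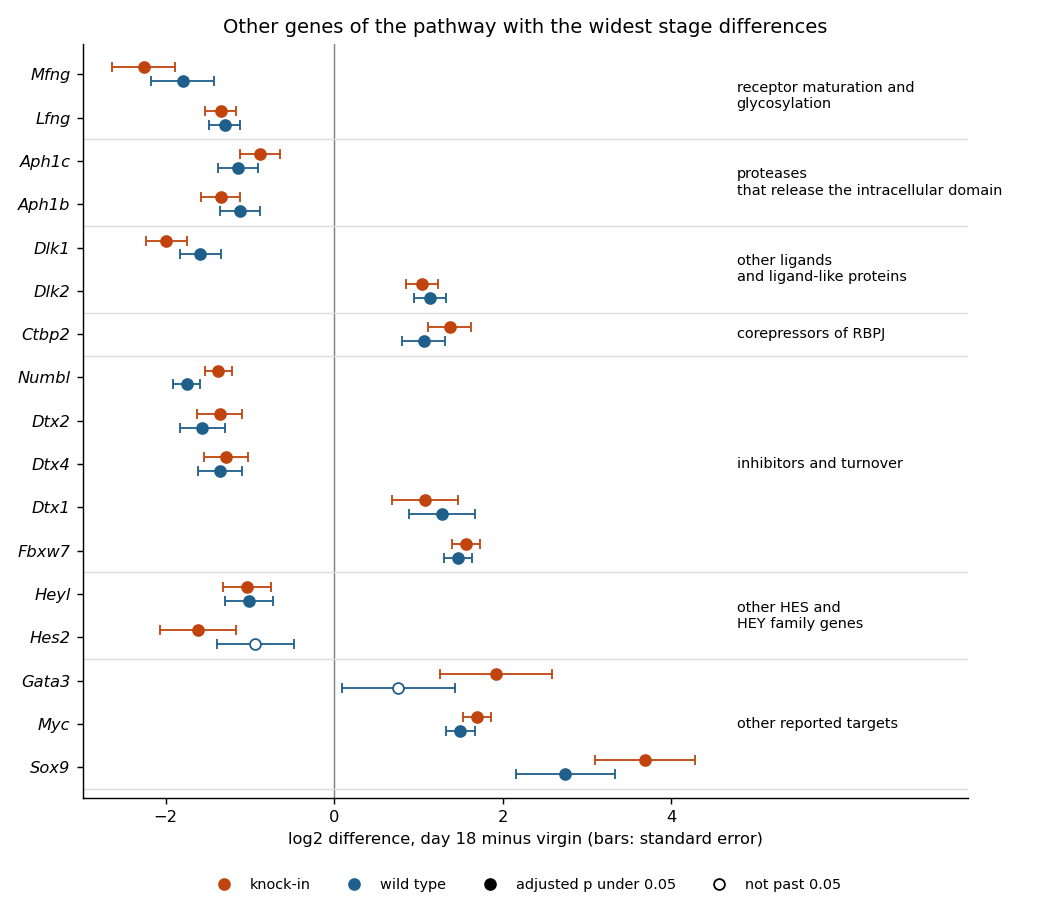
Stage differences, day 18 minus virgin, of the other pathway genes with the widest changes, in log2 units with standard errors, for knock-in and wild-type mice, grouped by role; filled points passed an adjusted p of 0.05. Mfng, Lfng and Numbl lay below 0 and Fbxw7, Myc and Sox9 above 0 in both genotypes.

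Between genotypes, 0 of the 10 members passed the test at day 18 or in virgins, where 0% of all genes passed it. By unadjusted limma p, 0 of 10 were under 0.05 at either stage, beside 1.97% of all genes at day 18 and 3.58% in virgins. The members' median difference, knock-in minus wild type, was −0.17 at day 18 and −0.16 in virgins. Of the 65 other pathway genes 0 were called at either stage, and 0 at day 18 and 3 in virgins had an unadjusted p under 0.05.

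The widest genotype difference among members was that of Notch1 at day 18, at 0.91 ± 0.50 (95% interval −0.11 to 1.94, adjusted p = 1.00, exact p = 0.175). The 5 knock-in values given above reached from 0.60 to 2.86 and overlapped the wild-type values from −0.36 to 1.99. Within slides the difference was 2.19, 0.32 and 0.62. In virgins it was −0.16, with an interval from −1.03 to 0.71. The interval at day 18 therefore covers both a level near that of wild type and a knock-in level several times higher.

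Hey1 at day 18 was the 1 member whose genotypes did not overlap, which 1.25% of all genes also showed (in virgins 0 of 10 members, beside 0.0134%). All 5 knock-in values, from −1.54 to −1.02, lay below all 5 wild-type values, from −0.90 to −0.48, and the difference was −0.53 ± 0.35 (95% interval −1.25 to 0.19). The limma test pools the spread of all 4 groups, whose SDs for Hey1 were 0.21 in knock-in and 0.18 in wild-type day 18 mice, and 0.84 in knock-in and 0.56 in wild-type virgins. It gave an unadjusted p of 0.144 and an adjusted p of 1.00. The difference passed in 0 of the 17 alternative ways of processing (lowest adjusted p = 0.488). In 1 of these only the 2 groups compared were fitted. The exact permutation p was 0.0079, the smallest that 252 splits allow, and is not adjusted over the 10 members. With 5 and 5 animals, groups that do not overlap always give this value, so it adds nothing to the separation. The difference was −0.79, −0.43 and −0.48 within the 3 slides. In virgins the genotypes overlapped, at −0.17 (95% interval −0.78 to 0.44), and without mice 376, 184 and 198 the difference was 0.29.

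The remaining members had genotype differences at day 18 between −0.33 (Hes1) and 0.31 (Dll4), and in virgins between −0.45 (Notch3) and 0.68 (Dll4). For Notch3 in virgins the interval ran from −0.92 to 0.02 (unadjusted p = 0.060, adjusted p = 0.702), and the value was −0.15 without mice 376, 184 and 198. For Dll4 in virgins the interval ran from −0.27 to 1.63, and the value was 0.24 without them.

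**Figure D5:**
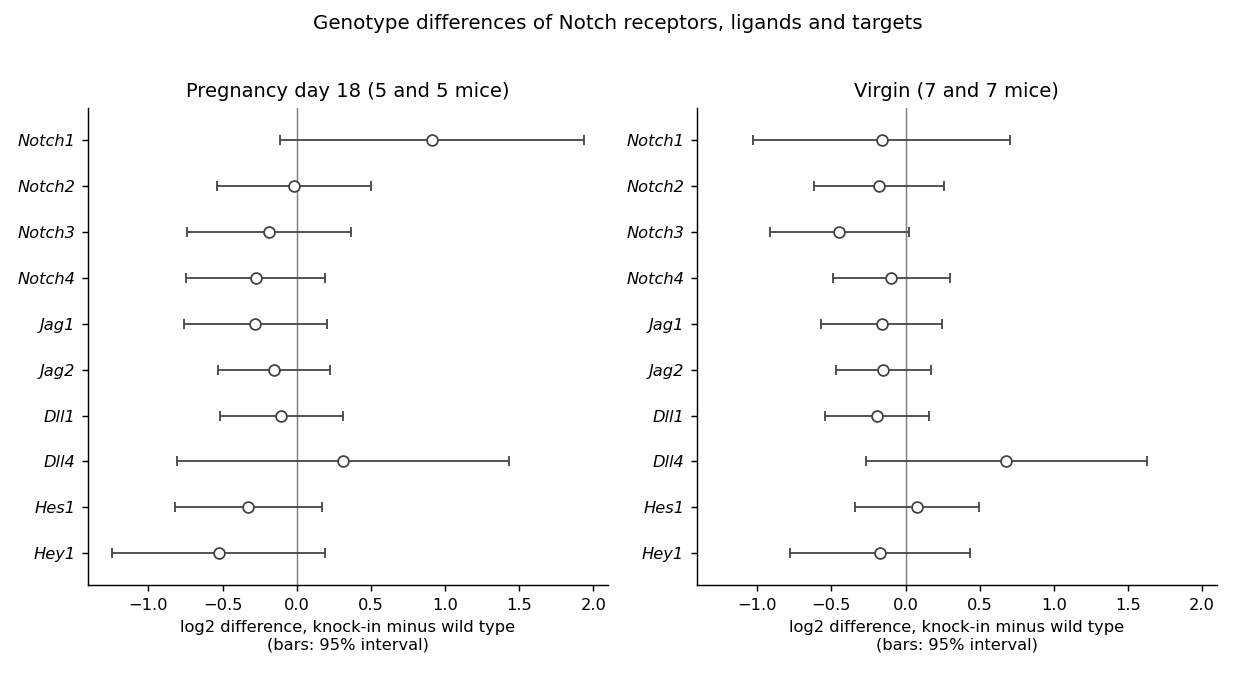
Genotype difference of each of the 10 genes, knock-in minus wild type, in log2 units with 95% intervals, at day 18 and in virgins. All 20 intervals include 0.

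Over the 21 arrays without mice 376, 184 and 198, Notch1 was the member that varied most among animals of 1 group. Its SD within groups was 0.78, at the 93.3rd percentile of all genes, where the median gene had 0.32. Dll4 followed with 0.56, and the other 8 members lay between 0.24 and 0.39. Over all 24 arrays Dll4 led with an SD of 0.90 and Notch1 followed with 0.82. The genes most like each member were taken as those with the highest correlation of deviations from the group means over these 21 arrays. The deviations share the array's scaling, its RNA and its cell mixture. Notch1 varied with Pnma2 (r = 0.99), Treml2 (0.99) and the unnamed transcript BU554916 (0.98), and 35 genes had an r above 0.9 with it. With all 24 arrays the r was 0.80 for Pnma2 and 0.95 for Treml2. Notch2 was most like Wasf2 (0.93), Notch3 like Kmt2b (0.89), Notch4 like the endothelial phosphatase gene Ptprb (0.88), and Hey1 like Tlcd4 (0.89). Jag1 was most like Magi3 (0.83), Jag2 like Vmn1r192 (0.82), Dll1 like Cacfd1 (0.87) and Hes1 like Pitpnb (0.81). For Dll1 the leading r was 0.24 over all 24 arrays, so that likeness depends on which arrays enter. Among members, the highest r was 0.71, between Notch4 and Dll4, which was −0.07 over all arrays, while Hes1 and Hey1 had 0.62 over 21 and 0.72 over 24 arrays.

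Promoter sequences were looked up for the members in a table of RefSeq promoters (GRCm38.p6), which covers 250 bases before to 50 after each start. It held 8 of the 10 members, without Hes1 and Hey1. The core of the RBPJ motif, TGGGAA, was searched on both strands, and none of the 8 members' windows holds it, while 25.56% of 32851 promoters do. The longer form GTGGGAA, which contains the core, was also in 0 of 8, beside 6.383% of all. The 250 bases upstream are shown for Dll1 (its more distal start) and Jag1, the ligands that moved in opposite directions. Both are on the minus strand, at chr17:15376933-15377182 for Dll1 and chr2:137116521-137116770 for Jag1, and neither has capitals because no motif was found.
Dll1: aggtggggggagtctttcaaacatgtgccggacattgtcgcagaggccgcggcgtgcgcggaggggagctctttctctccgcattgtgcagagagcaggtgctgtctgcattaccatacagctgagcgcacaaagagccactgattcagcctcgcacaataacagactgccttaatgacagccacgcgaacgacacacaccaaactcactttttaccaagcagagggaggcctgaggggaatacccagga
Jag1: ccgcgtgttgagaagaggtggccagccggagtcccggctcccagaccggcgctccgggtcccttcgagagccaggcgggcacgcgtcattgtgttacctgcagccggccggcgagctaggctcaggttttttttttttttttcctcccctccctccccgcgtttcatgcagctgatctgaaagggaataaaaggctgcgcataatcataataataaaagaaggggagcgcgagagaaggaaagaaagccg
All 9 upstream windows of the 8 members were above the median GC content of promoters, which is 52.4%, from 56% at the distal Dll1 start to 87.2% at Jag2.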

How the data were processed

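RNA of 24 mammary glands, 1 animal each, was labelled with Cy3 and hybridised to Agilent 60K mouse arrays on 3 slides of 8 arrays. Per the file headers, the deposited scanner files hold processed signal intensity for each spot, background-subtracted and detrended, with no scaling between arrays; per the submitters' processing notes they come from Agilent Feature Extraction 12.0.3.2. The deposited series table holds log10 of the same processed signal: over 62969 features the smallest correlation with the scanner values was 1.0000 and the largest difference 0.0050, and its column medians ran from 1.31 to 3.23.

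From these, log2 of the processed signal was taken, outlier spots were set to missing, spots of 1 probe were averaged and each array's 75th percentile over 59305 spots was subtracted (the deposited values carry no log2 scaling of their own). Probes entered the tests when 1 group or more had them well above background on 80% of its arrays, and a gene was read at its kept probe of highest mean. Group means were fitted over all 24 arrays with limma 3.58.1 in R 4.3.3, with eBayes and Benjamini-Hochberg adjustment over 22382 genes, or over 35117 probes, for 6 comparisons. The number of arrays limits the precision: the median standard error over genes was 0.27 for a stage difference, 0.29 for a genotype difference at day 18 and 0.24 in virgins.

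Probes were named through their RefSeq accession (35405), symbol (9124) or synonym (25), and 12051 kept the file's name. Coordinates are those of the files (mm9), and promoters come from a RefSeq table of GRCm38.p6. No genome was used here, so exon and intron positions are not given. The fit was tested on simulated data. The members, the pathway and marker lists and the 3 mice left out were chosen with earlier results of these data known. The text names all members, up to 15 pathway genes with the widest called stage difference in each genotype, the 3 genes most like each member (or the leading 1) and the first gene of a marker list. Further pathway genes, and Hspa1a, 1110038B12Rik and Slc44a4, were named after their values were seen, to account for the counts by role or for a probe's surroundings. Some genes that the rule would name are not reported here. Alternatives were other scalings, background correction, filters, the slide as a block, array weights, and each mouse left out in turn.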

Additional observations from a re-analysis of the deposited data

Results flagged for a closer look

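Of 40 sets of values, 10 genes in 4 groups, 9 held an animal far from the rest of its group by Dixon's test at the 95% level, which chance alone flags in about 1 set in 20. The array of virgin knock-in mouse 376, with the high background, gave 3 of them, as the lowest value of its group for Notch2 (0.20, the nearest other at 1.41), Notch3 (1.18, nearest 2.47) and Jag1 (−1.09, nearest −0.02). The array of knock-in day 18 mouse 184, second in its count of spots above background, gave the highest Dll4 value of its group (−1.93, nearest −3.87).

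The other 5 came from arrays that did not stand apart in background. Notch1 was lowest in virgin wild-type mouse 369 (−1.73, nearest −0.25). Notch3 was lowest in virgin wild-type mouse 317 (2.32, nearest 2.95). Jag1 was lowest in wild-type day 18 mouse 235 (−1.34, nearest −0.71). Jag2 was highest in virgin knock-in mouse 196 (−0.93, nearest −1.53). Hes1 was lowest in knock-in day 18 mouse 211 (−2.80, nearest −2.16).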

How the results depend on the processing

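Hey1 passed between stages in both genotypes under all 17 alternatives other than leaving out 1 mouse at a time, while Notch2 passed in 14 in knock-in and 16 in wild-type mice, Jag1 in 14 in each genotype, and Dll1 in 16 in knock-in and 15 in wild-type mice. Notch1 passed in 15 in knock-in and 0 in wild-type mice, and Hes1 in 1 in knock-in (spike-in scaling, lower) and 13 in wild-type mice. Under median scaling 3 members (2 higher, 1 lower) were called in knock-in mice and 2 (1 and 1) in wild-type mice, and in wild-type mice quantile normalization gave 2 (0 and 2) and normexp with quantile normalization 3 (1 and 2), each against 5. Of the members' probes, quantile normalization and median scaling each called 3 in wild-type mice. Median scaling also called fewer genes in general, as given below. For quantile normalization, with or without normexp, the share of all genes called is not given here. Nothing about the members is therefore read from these lower counts. Of the other pathway genes, median scaling called 10 (6 higher, 4 lower) in knock-in and 8 (6 and 2) in wild-type mice. In wild-type mice the count was 48 (24 and 24) with only the 2 groups compared, 50 (25 and 25) with array weights, 47 (22 and 25) without mice 376 and 184 and 48 (23 and 25) without mouse 198 as well, where 59.8%, 62.9%, 59.3% and 60.1% of all genes were called, against 41.8% with the main setting, and array weights called 1 pathway gene, lower, between virgin genotypes. Spike-in scaling reversed Notch4 (−0.72) and Hes1 (−0.59) in knock-in mice, and Notch3 (−0.84), Notch4 (−0.62), Jag2 (−0.60) and Hes1 (−0.27) in wild-type mice; it lowers the median of all genes, as given in the report. Over all genes it called 13016 in knock-in and 14807 in wild-type mice and median scaling 5068 in knock-in and 5316 in wild-type mice, against 9658 in knock-in and 9357 in wild-type mice with the 75th percentile. Mice 376, 184 and 198 are knock-in mice, so without them the wild-type differences stayed the same. Only the spread pooled over the groups, and with it the p-values, changed there. For the other changes the cause was not tested.

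Leaving out 1 mouse at a time gave 4 to 6 called members in knock-in mice and 4 to 5 in wild-type mice, 26 to 41 called pathway genes in knock-in and 25 to 46 in wild-type mice, and 0 members between genotypes. Jag2 passed in knock-in mice without virgin mouse 196 (adjusted p = 0.0340). Genotype and interaction differences, all uncalled, changed sign in 84 of 1620 recomputed values. No paired analysis was possible because no animal number is shared between groups. Signal over background limits the Notch4 clone probe in virgins and the 3 dim probes.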
